A study of Homo sapiens with 2 samples.

Results

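The interferon-stimulated genes are 35 genes listed by name as effectors of type I interferon and their STAT and IRF regulators, and they were found in the FPKM table by Entrez gene ID. All 35 had a row with values, out of 23033 genes with values. The rule that names them uses no measured value, although it was written with earlier results of these data known. Total RNA of control (genotype WT) and FZR1 ko cells, both labelled T-47D and both given cisplatin at 2 μg/mL, was sequenced with 1 library per condition. The study set out to screen for molecules of drug-induced apoptosis with these libraries. FZR1, which encodes an activator of the anaphase-promoting complex, a ubiquitin ligase of the cell cycle, was knocked out by CRISPR/Cas9 followed by single-cell cloning, so FZR1 ko stands for 1 clone, and a difference between conditions cannot be told apart from a difference between clones. Cells without cisplatin were not analysed here, so the values do not show what the drug changed.

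Type I interferons are secreted when a cell detects foreign or misplaced nucleic acid. They bind a receptor on the cell surface, and its kinases JAK1 and TYK2 phosphorylate STAT proteins such as STAT2. STAT2 acts with IRF9 in a complex that binds a short DNA element, the interferon-stimulated response element (ISRE), in the promoters of interferon-stimulated genes. Many of these genes block viral RNA or viral entry, and in breast cancer cells part of the group can be expressed without added interferon.

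Levels are given as FPKM, a measure scaled by transcript length and by the mapped fragments of the library, so that genes of different length can be compared. The log2 ratio below is the difference between libraries, FZR1 ko minus control, on the log2(FPKM + 1) scale, which understates the change of low genes, and folds are ratios of FPKM with nothing added. A gene was kept if either library reached 1 FPKM, which left 13554 genes. The table holds no read counts, so the depth behind a value is unknown, and with 1 library per condition no difference has a replicate check and no test was made. A gene called at least 2-fold different therefore passed a fold threshold only. In bulk RNA, fewer cells that express a gene and less RNA per cell cannot be told apart.

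FZR1 itself had 12.3 FPKM in control against 10.1 FPKM in FZR1 ko, a level that does not check the labels, because a frameshift made by Cas9 need not remove the transcript. Of 8 luminal breast markers, 5 were under 1 FPKM in both libraries, namely the estrogen and progesterone receptors ESR1 and PGR, GATA3, CDH1 and KRT19, which go against the labelled line, while KRT8, KRT18 and FOXA1 were present. Markers of blood, endothelial and stromal cells were low, with 10 markers summing to 12.2 FPKM (control) and 9.14 FPKM (FZR1 ko), CD3E listed at 0 in both, and no marker above 6.25 FPKM. Single markers still differed between the libraries. The endothelial CDH5 had 3.64 FPKM in control and 0.33 FPKM in the knockout, 11.0-fold lower, and the monocyte marker CD14 had 1.05 and 0.11 FPKM. The stromal PDGFRB was on the other side, with 0.44 and 1.58 FPKM. Their part in the results was not tested.

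The 35 genes ranged from listed at 0 to among the most abundant mRNAs in both libraries, and they summed to 1257 FPKM in control and to 1258 FPKM without FZR1. The 4 genes with the highest level in control, IFITM3, BST2, ISG15 and IFITM2, made up 73.1% (control) and 72.2% (FZR1 ko) of these sums. The other 31 genes summed to 338 FPKM in control against 350 FPKM in FZR1 ko. Of the 35 genes, 28 passed the filter, and 7 were under 1 FPKM in both libraries (OAS2, MX1, MX2, RSAD2, IFI44L, XAF1 and TRIM22).

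Behind the equal sums, single genes differed in both directions. Of the 28 genes kept, 16 were higher and 12 lower in FZR1 ko, against 49.6% higher among all genes kept. The median log2 ratio of the 28 genes was 0.22, and that of all genes kept was -0.0048. With the 7 genes under the filter included, the median over all 35 was 0.00, the value of IFI44L, which was listed at 0 in both libraries. Without the filter, the median of all 23033 genes was 0.00 too. UBE2L6, IFI44 and SAMD9L were at least 2-fold higher in FZR1 ko, a group that held 6.79% of all genes kept. IRF1, IRF7 and IFITM1 were at least 2-fold lower, a group that held 6.72% of all genes kept. Together these 6 genes are 21.4% of the 28, beside 13.5% of all genes kept. With a pseudocount of 5 FPKM, IRF7 (log2 ratio -0.99), UBE2L6 (0.75) and SAMD9L (0.39) were no longer 2-fold different. At a smaller limit, set after the values were seen, 12 of the 28 genes had a log2 ratio of at least 0.5 (21.6% of all genes kept did) and 4 had one of at most -0.5 (21.0% did). DDX60 and SAMD9L passed the filter only through FZR1 ko, and IFI27 only through control, so their place among the 28 rests on 1 library. When both libraries had to reach 1 FPKM, 25 members were left, of which 14 were higher in FZR1 ko, and their median log2 ratio was 0.16. Of these 25, 2 (UBE2L6 and IFI44) were at least 2-fold higher, beside 5.33% of the genes left, and 3 at least 2-fold lower, beside 5.13%. By plain FPKM ratios under that filter, a setting added after the values were seen, 4 of them (UBE2L6, IFI44, HERC6 and IFIT1) were at least 2-fold higher, beside 8.10% of the 12081 genes left, and 3 (IRF1, IRF7 and IFITM1) were at least 2-fold lower, beside 7.22%.

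The transcription factors of the group were lower in FZR1 ko. STAT2 had 16.1 FPKM in control against 11.4 FPKM in FZR1 ko, giving a log2 ratio of -0.47. IRF9, its DNA-binding partner, had 9.40 FPKM and 7.12 FPKM (log2 ratio -0.36). IRF1 (Entrez gene 3659, chromosome 5, 132481609 to 132490773 on hg38), a factor induced by interferon gamma and by NF-kB, had 36.5 FPKM (control) and 15.3 FPKM (FZR1 ko), 2.39-fold lower, with a log2 ratio of -1.20. IRF7 (Entrez gene 3665, chromosome 11, 612555 to 615950), which drives the transcription of interferon alpha genes, had a control level of 21.2 FPKM and an FZR1 ko level of 8.24 FPKM, 2.58-fold lower, with a log2 ratio of -1.27. All 4 factors had the lower value in FZR1 ko, IRF1 and IRF7 by more than 2-fold. The regulator on the other side was USP18, which removes ISG15 from proteins and dampens receptor signalling. It was higher in FZR1 ko, at 10.4 FPKM against 6.79 FPKM in control (log2 ratio 0.55). In GENCODE 44, 580 bases of the 3554-base IRF1 transcript overlap an annotated noncoding gene on the other strand. Likewise, 1513 of the 1626 bases of IRF9 overlap another coding gene on its own strand. Some of these values may therefore carry uncertain reads. Whether the overlapping genes were in the annotation behind the values is unknown, because its version is not given. Strand use is not given in the sources used here.

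Both sensors of viral RNA were low and higher in FZR1 ko. IFIH1, which encodes MDA5 and binds long double-stranded RNA, had 3.40 FPKM in control against 4.54 FPKM in FZR1 ko (log2 ratio 0.33). DDX60, a helicase linked to RNA sensing, had 0.84 FPKM (control) and 2.13 FPKM (FZR1 ko), a log2 ratio of 0.77.

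Of the IFIT family, whose proteins bind viral RNA and hinder its translation, 3 of 4 genes were higher in FZR1 ko, none of them by 2-fold on the log2(FPKM + 1) scale. IFIT1 had a control level of 2.83 FPKM and an FZR1 ko level of 6.34 FPKM, a log2 ratio of 0.94, just inside the 2-fold limit. Without the pseudocount it was 2.24-fold higher. IFIT2 had 10.1 FPKM in control against 15.3 FPKM in FZR1 ko (log2 ratio 0.56). IFIT3, a partner that stabilises IFIT1 on RNA, had 15.1 FPKM (control) and 26.8 FPKM (FZR1 ko), a log2 ratio of 0.79. IFIT5 was the one member on the other side, with 7.48 FPKM (control) and 6.07 FPKM (FZR1 ko), a log2 ratio of -0.26. The sum of the family was 35.5 FPKM in control against 54.5 FPKM in FZR1 ko.

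The OAS genes encode enzymes that make short oligoadenylates on sensing double-stranded RNA, which activate the nuclease RNase L. OAS1 had 25.7 FPKM (control) and 38.0 FPKM (FZR1 ko), a log2 ratio of 0.55. OASL, a relative without that enzyme activity that supports RNA sensing, had a control level of 15.7 FPKM and an FZR1 ko level of 29.8 FPKM (log2 ratio 0.88). Both were thus higher in FZR1 ko, below the 2-fold limit. OAS3, the most abundant of the family, had 49.5 FPKM in control against 45.4 FPKM in FZR1 ko (log2 ratio -0.12), and OAS2 was at 0.45 FPKM and 0.13 FPKM, under the filter in both libraries.

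The genes that act on virus entry and release held the highest levels of the group and also its largest difference. IFITM proteins sit in membranes and hinder the fusion of virus and cell, with IFITM1 mainly at the cell surface and IFITM2 and IFITM3 in endosomes. IFITM3 had 426 FPKM (control) and 383 FPKM (FZR1 ko), a log2 ratio of -0.15, a level above 98.8% of the genes kept in control. IFITM2 had a control level of 130 FPKM and an FZR1 ko level of 136 FPKM (log2 ratio 0.07). IFITM1 (Entrez gene 8519, chromosome 11, 314040 to 315272) stood at 16.4 FPKM in control and 2.21 FPKM in the knockout, 7.43-fold lower, with a log2 ratio of -2.44. The gene between IFITM2 and IFITM3 on the chromosome was therefore far lower in FZR1 ko, while its neighbours differed little. BST2, or tetherin, which holds budding virus on the cell surface, had 229 FPKM in control against 256 FPKM in FZR1 ko (log2 ratio 0.16).

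The 3 IFITM transcripts are similar enough to share reads. Over the aligned bases of the main GENCODE 44 transcripts, IFITM1 was 77.9% identical to IFITM2 and 79.9% identical to IFITM3, and IFITM2 was 94.0% identical to IFITM3. The longest run of identical bases was 141 between IFITM1 and IFITM3 and 99 for each of the other two pairs. A read within such a run fits both genes, and 351 of the 668 bases of IFITM1 also overlap another annotated coding gene on the same strand. RSEM divides shared reads by estimate, so the small value of IFITM1 in FZR1 ko beside the large IFITM2 and IFITM3 is uncertain. Without the 3 IFITM genes, a setting added after the values were seen, the median log2 ratio of the 25 genes left was 0.33.

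MX1 and MX2, dynamin-like GTPases that trap viral capsids and are classic markers of an interferon response, were near 0 in both libraries. MX1 had 0.21 FPKM (control) and 0.25 FPKM (FZR1 ko). MX2 had 0.02 FPKM in control and a listed 0 in FZR1 ko.

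ISG15 is a ubiquitin-like protein that is attached to other proteins by the enzyme UBE2L6 and the ligase HERC5. ISG15 itself was abundant and the same in both, with 134 FPKM in control against 133 FPKM in FZR1 ko, giving a log2 ratio of -0.01 that became 0.04 when the upper quartiles of the libraries were made equal. UBE2L6 (Entrez gene 9246, chromosome 11, 57551662 to 57567935), the conjugating enzyme, had 1.36 FPKM in control against 5.72 FPKM in FZR1 ko, 4.21-fold higher, with a log2 ratio of 1.51. HERC5 had 13.9 FPKM (control) and 16.9 FPKM (FZR1 ko), a log2 ratio of 0.27. HERC6, its neighbour and relative, had a control level of 1.15 FPKM and an FZR1 ko level of 3.24 FPKM, a log2 ratio of 0.98 that lay just inside the 2-fold limit. Without the pseudocount HERC6 was 2.82-fold higher. The modifier thus had the same level in both, while its conjugating enzyme and both HERC genes had the higher value in FZR1 ko.

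Among the remaining effectors, IFI44 and SAMD9L were at least 2-fold higher in FZR1 ko. IFI44 had the largest log2 ratio on the higher side of the 35 genes, whereas by plain FPKM ratios SAMD9L and UBE2L6 lay above it. IFI44 (Entrez gene 10561, chromosome 1, 78649789 to 78664078), a protein reported to restrain cell growth, had 4.64 FPKM in control against 17.8 FPKM in FZR1 ko, 3.83-fold higher, with a log2 ratio of 1.73. SAMD9L (Entrez gene 219285, chromosome 7, 93130056 to 93148385), a growth-restraining antiviral factor, had 0.46 FPKM (control) and 2.15 FPKM (FZR1 ko), 4.67-fold higher, with a log2 ratio of 1.11. IFI35 had a control level of 12.7 FPKM and an FZR1 ko level of 21.7 FPKM (log2 ratio 0.73). On the lower side, SAMD9 had 21.8 FPKM in control against 15.5 FPKM in FZR1 ko (log2 ratio -0.47). IFI6, a mitochondrial protein that delays apoptosis, had 41.9 FPKM (control) and 35.8 FPKM (FZR1 ko), a log2 ratio of -0.22, and IFI27 had 1.29 FPKM and 0.48 FPKM (log2 ratio -0.63). The other 4 were under 1 FPKM in both. RSAD2, or viperin, which makes a chain-terminating nucleotide, had a control level of 0.42 FPKM and an FZR1 ko level of 0.25 FPKM. XAF1, which promotes apoptosis, had 0.84 and 0.67 FPKM, and TRIM22 had 0.13 and 0.07 FPKM. IFI44L was listed at 0 in both.

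Related genes that lie side by side did not all share a direction. On chromosome 10, IFIT2, IFIT3 and IFIT1 were higher in FZR1 ko and IFIT5 at the end of the same 119-kb stretch was lower. On chromosome 7, SAMD9 was lower and SAMD9L higher, a gap of 1.57 between log2 ratios within 48.9 kb, and these transcripts share no run of identical bases above 32. On chromosome 1, IFI44 was expressed in both libraries, while IFI44L, in the same 43.6 kb, was listed at 0, with no shared run above 13 bases. On chromosome 11, the log2 ratios of the 3 IFITM genes spanned 2.51 within 13.0 kb. The 2 HERC genes on chromosome 4 were both higher, and of the 3 OAS genes on chromosome 12 OAS1 was higher, OAS3 slightly lower and OAS2 under the filter.

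**Figure D1:**
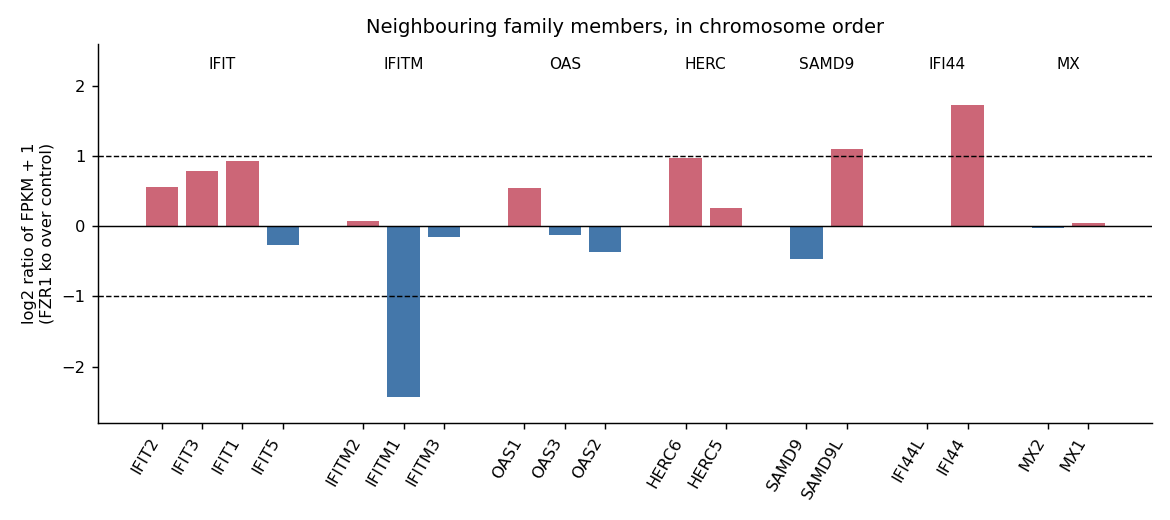
Log2 ratio of FPKM + 1, FZR1 ko over control, for the 18 genes that lie beside a relative, in chromosome order within each family named above the bars; dashed lines mark 2-fold, and OAS2, IFI44L, MX1 and MX2 are under 1 FPKM in both libraries. IFITM1 stands at -2.44 between neighbours near 0, and SAMD9L and IFI44 stand above 1 beside neighbours that do not.

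Promoter sequences from 250 bases before to 50 bases after each start (RefSeq, GRCh38.p14) were at hand for 27 of the 35 genes. IRF7, IFITM2, MX2, OAS2, OASL, IFIT2, USP18 and TRIM22 had no entry. The core of the ISRE, searched on both strands as a pair of GAAA with any 2 bases between them, was found for 18 of the 27 genes (66.7%), against 4.38% of all 27305 genes with an entry and 3.57% of all 35116 promoters. The GAS core, the site of STAT dimers, searched as TTCNNNGAA, reads the same on both strands and was found for 9 of the 27 genes (33.3%), against 9.38% of all genes and 7.66% of all promoters. The genes were listed by name as effectors of interferon, which acts through the ISRE, so a larger share with its core follows from the list. Matches of the ISRE and GAS cores overlapped in 4 genes (BST2, IFI27, IFITM1 and MX1), and 5 genes (HERC6, SAMD9L, STAT2, UBE2L6 and XAF1) had neither. These matches are letters in a window and not shown to be bound sites. An element with other letters or spacing, or outside the window, would be missed. Stretches of 8 promoters are given below, in the direction of the gene, with the ISRE core in capitals for 7 of them and the GAS core in capitals for IRF1. A core that lies on the other strand shows as TTTC in place of GAAA. They were chosen to set genes of unlike behaviour side by side, and where a gene has several starts the one farthest upstream was used.
IFIT1, higher in FZR1 ko, chr10:89392493-89392542, plus strand: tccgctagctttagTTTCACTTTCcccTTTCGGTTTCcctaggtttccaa
IFIT3, higher in FZR1 ko, chr10:89327837-89327896, plus strand: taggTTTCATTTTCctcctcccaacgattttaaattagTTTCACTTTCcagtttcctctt
IFI44, higher in FZR1 ko, chr1:78649749-78649788, plus strand: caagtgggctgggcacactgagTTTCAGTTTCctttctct
ISG15, level in both, chr1:1013372-1013421, plus strand: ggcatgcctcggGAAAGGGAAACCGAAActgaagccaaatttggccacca
IFITM3, level in both, chr11:320876-320925, minus strand: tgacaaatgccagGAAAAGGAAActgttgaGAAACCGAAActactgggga
IFITM1, lower in FZR1 ko, chr11:313990-314043, plus strand: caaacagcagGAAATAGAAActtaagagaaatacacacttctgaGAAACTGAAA
IFI44L, listed at 0 in both, chr1:78620358-78620407, plus strand: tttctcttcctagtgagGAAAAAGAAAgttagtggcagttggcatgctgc
IRF1, lower in FZR1 ko, chr5:132490864-132490913, minus strand: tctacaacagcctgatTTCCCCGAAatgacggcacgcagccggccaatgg

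The ISRE core was found in genes of every kind of behaviour. Of the 15 genes kept that have it, 7 were higher and 8 lower in FZR1 ko, with a median log2 ratio of -0.01 and a range from -2.44 (IFITM1) to 1.73 (IFI44). Of the 8 genes kept without it, 5 were higher (HERC6, IFI35, OAS1, SAMD9L and UBE2L6) and 3 lower (IRF1, IRF9 and STAT2), with a median of 0.64. The difference between these medians was not tested. IRF7, IFITM2, OASL, IFIT2 and USP18 were kept but had no promoter entry, so they are in neither group. IFITM1 and IFITM3 each have 2 matches close to the start, and their log2 ratios were -2.44 and -0.15. Likewise IFI44L, at 0 in both libraries, has the core as IFI44 does.

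Other genes of the pathway were described from a list of 64 genes that are not members, 27 of them further interferon-induced genes and the rest ligands, receptors, kinases and other signalling genes. Of these, 58 had values, 43 were kept, and 19 were higher and 24 lower in FZR1 ko, with a median log2 ratio of -0.04. No gene was at least 2-fold higher and 1, SOCS1, was at least 2-fold lower, where all genes kept had 6.79% and 6.72%.

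The ligands were the lowest group. IFNA1, IFNA2, IFNB1, IFNG and IFNL2 had a row without values in the table, as did the interferon-induced CMPK2, and the 7 other interferon genes with values summed to 0.79 FPKM in control against 0.27 FPKM in FZR1 ko, the highest being IFNE at 0.44 FPKM in control. All 6 receptor genes were present and lower in FZR1 ko, with log2 ratios from -0.73 to -0.12. The highest in control was IFNGR2, with 22.0 FPKM (control) and 16.2 FPKM (FZR1 ko), and the type I receptor chain IFNAR1 had 12.0 FPKM and 9.72 FPKM. The receptor kinase TYK2 was level in both, at 26.5 and 25.7 FPKM. JAK1 had a control level of 14.4 FPKM and an FZR1 ko level of 24.9 FPKM (log2 ratio 0.75).

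Among 10 genes of nucleic acid sensing, 9 were kept, 4 higher and 5 lower in FZR1 ko. IRF3, the factor that first switches on interferon beta and the highest of them, had 59.0 FPKM in control against 42.8 FPKM in FZR1 ko (log2 ratio -0.45). CGAS, the sensor of DNA in the cytosol, had 22.3 FPKM and 11.9 FPKM (-0.85), and its adaptor STING1 had 39.0 FPKM and 28.7 FPKM (-0.43). The 4 higher ones were IKBKE (0.59), RIGI (0.31), MAVS (0.19) and DHX58 (0.16). Of 5 negative regulators, 3 were higher and 2 lower, with a median log2 ratio of 0.28. SOCS1, an inhibitor of JAK kinases, had 17.3 FPKM (control) and 3.15 FPKM (FZR1 ko), 5.48-fold lower, with a log2 ratio of -2.14. SOCS3, the most abundant in control, had 22.7 FPKM and 16.1 FPKM (-0.47). The higher ones were PTPN2 (0.75), PIAS1 (0.43) and PTPN6 (0.28). The 27 further interferon-induced genes split evenly, with 9 higher and 10 lower among the 19 kept. LGALS3BP, the highest of them, had a control level of 185 FPKM and an FZR1 ko level of 257 FPKM (log2 ratio 0.47), while the chemokine CXCL10 had 0.34 FPKM in control and a listed 0 in FZR1 ko.

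MHC class I genes and the factors that load peptides on them are also raised by interferon. IRF1 is among the factors that act on their promoters, a link that was not tested here. Of 18 such genes, all kept, 13 were lower and 5 higher in FZR1 ko, with a median log2 ratio of -0.34. B2M, the light chain of MHC class I and the highest of the list, had 1309 FPKM in control against 422 FPKM in FZR1 ko (log2 ratio -1.63). HLA-E, a ligand of natural killer cell receptors, had 91.7 FPKM (control) and 43.2 FPKM (FZR1 ko), a log2 ratio of -1.07. These 2 of 18 were the genes at least 2-fold lower in the list, where 6.72% of all genes kept were, and none was at least 2-fold higher, where 6.79% were. By any amount, 49.6% of all genes kept were higher. The 5 higher genes of the list were PSMB9 (log2 ratio 0.77), NLRC5 (0.65), ERAP1 (0.34), CANX (0.16) and CALR (0.12). The 28 interferon-stimulated genes kept had a median of 0.22, and all 35 had one of 0.00, the value of IFI44L, listed at 0 in both. All these medians come from the same pair of libraries, and their differences were not tested.

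**Figure D2:**
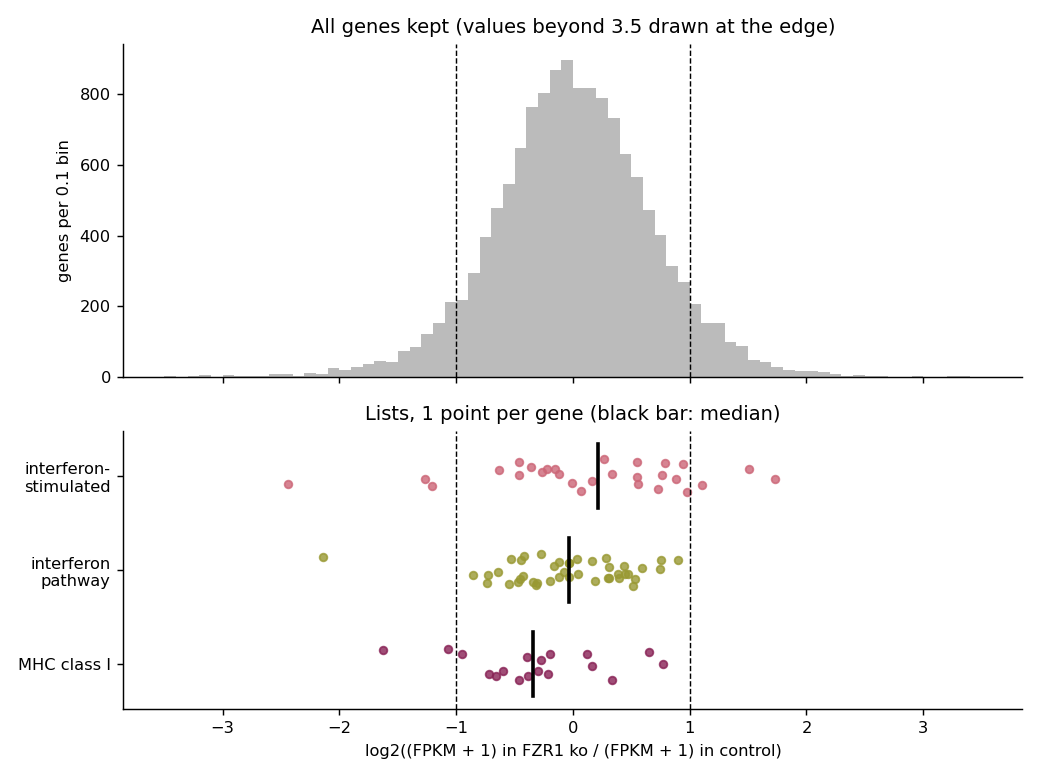
Top, number of genes per 0.1-wide bin of the log2 ratio for all 13554 genes kept; bottom, the log2 ratio of each gene kept in the interferon-stimulated, interferon pathway and MHC class I lists, with a black bar at the median and dashed lines at 2-fold. Medians are 0.22, -0.04 and -0.34, and points of all 3 lists lie on both sides of 0.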

How the data were processed

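Total RNA of 1 control and 1 FZR1 ko library was read on a BGISEQ-500 sequencer. The authors' methods give alignment to the transcriptome with Bowtie2 and quantification with RSEM on UCSC hg38, and the submitters' processing notes name Trimmomatic 0.36, HISAT2 2.1.0, Bowtie2 2.2.5 and RSEM. Annotation version, read length and strand are not given in the sources used here. The authors deposited FPKM per Entrez gene ID to 2 decimals. Of 24663 rows, 1630 had no value and 23033 were used, with 0 unused value columns. Symbols and coordinates come from RefSeq GRCh38.p14, the hg38 build, which named 22925 of the IDs (99.5%).

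FPKM holds no counts. Among 125 olfactory receptor genes, the most frequent value above 0 was 0.06 FPKM in both libraries (5 genes in control, 10 in FZR1 ko), so values of that size may rest on very few reads.

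Log2 ratios used a pseudocount of 1 FPKM and a minimum of 1 FPKM in at least 1 library. The fold threshold was 2. No test was possible with 1 library per group. The computation was tested on simulated data with little noise and large planted changes in well-expressed genes. That checks the code and not the calls made here. Named genes were all members, FZR1, the highest gene of each role of the other lists, and those at least 2-fold different. Other named genes of those lists were added after their values were seen. Members and lists were chosen with earlier results of these data known. Protein sequences of the IFITM family were planned and not used here. Transcripts were aligned globally with Biopython 1.88. Python 3.11.15, numpy 2.4.6, pandas 2.3.3 and matplotlib 3.10.9 were used. Alternatives were pseudocounts of 0.1 and 5 FPKM, other filters, centring, equal sums, equal upper quartiles and a 4-fold threshold.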

Additional observations from a re-analysis of the deposited data

How the results depend on the processing

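No paired analysis was possible because no test was made on these single libraries, and no replicate could be left out. The number of interferon-stimulated genes at least 2-fold higher in FZR1 ko, 3 at first, was 6 with a pseudocount of 0.1 FPKM (IFIT1, HERC6 and DDX60 were added), 1 with one of 5 FPKM, which was IFI44, and 0 when 4-fold was asked for. Of all genes kept, 10.8%, 1.35% and 0.45% passed under these settings. The number at least 2-fold lower, 3 at first, was 4 at 0.1 FPKM (IFI27 was added), 2 at 5 FPKM (IRF7 was lost) and 1 at 4-fold, which was IFITM1, beside 10.04%, 1.99% and 0.657% of all genes kept. The MHC class I genes at least 2-fold lower numbered 0 at 4-fold, against 2. At a pseudocount of 0.1 FPKM SAMD9L (2.01) had a larger log2 ratio than IFI44 (1.91). By construction, fewer genes can pass when the pseudocount or the threshold is raised. The median log2 ratio of the interferon-stimulated genes, 0.22 at first, was 0.00 with no filter on low values (5 of the 7 genes added lie below 0 and 1 at 0). It was 0.33 without the 3 IFITM genes and from 0.16 to 0.27 under the others. The IFITM, no-pseudocount, protein-coding and promoter alternatives were chosen after seeing the data. Of the 28 members kept, the log2 ratio moved by more than 0.1 for 18 with a pseudocount of 5 FPKM and for 8 with one of 0.1 FPKM, and for 5 of 25 with none. The filters leave a single ratio as it is, and the scalings shift the genes nearly alike. Of these values 1 changed sign, ISG15 with equal upper quartiles. Equal upper quartiles moved the median of all genes kept to 0.04. The unknown depth limits the members near 0 most.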
